A study of Homo sapiens with 12 samples.

Results

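The 10 genes described here encode subunits of the Polycomb repressive complexes. They were chosen by name, as EZH1, EZH2, EED, SUZ12, RBBP4 and JARID2 of Polycomb repressive complex 2 (PRC2) and RING1, RNF2, BMI1 and CBX7 of Polycomb repressive complex 1 (PRC1). All 10 were on the array, with 16 probes out of 50599 and 10 gene names out of 36337. Their expression was read on 12 one-colour Agilent arrays of Colo320DM cells, an established line from a human colorectal cancer. Control clones carry pcDNA6.2-GW/EmGFP-miR-neg, and knockdown clones carry a vector whose artificial microRNA targets TET1, an enzyme that oxidises methylated cytosine. All clones were grown under G418 and picked as GFP-positive colonies. The 3 control and 3 knockdown clones each gave a mock array and an array of cells kept for 72 h with 1 µM 5-aza-dC (5-aza-2'-deoxycytidine), which traps the enzymes that methylate DNA. The 4 groups of 3 arrays were therefore mock control, mock knockdown, treated control and treated knockdown clones. Each group is 3 clones of a single cell line, the study used 2 knockdown vectors, and the number of clones limits the precision of every value.

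PRC2 places methyl groups on a lysine of histone H3, and the methylated histone marks silent developmental genes. PRC1 binds that mark through its CBX subunits and attaches ubiquitin to histone H2A through RING1 or RNF2. DNA methylation and Polycomb repression are separate silencing systems that tend to occupy different CpG-rich promoters, and both are altered in colorectal cancer.

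All values are log2 signals relative to the 75th percentile of the same array, so a value of 0 is that percentile and a difference of 1 is a doubling. Levels of different probes were not compared with each other, except to choose the brightest probe of a gene and in the sums over marker lists. All 16 probes were well above background on all 12 arrays. A difference was called at an adjusted p under 0.05 (limma, Benjamini-Hochberg over all probes tested). A gene with several probes was represented by its brightest, the one with the highest mean over all 12 arrays, treated arrays included. The arrays measure RNA of whole cultures, so that fewer cells of a kind and less RNA per cell cannot be told apart.

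The promoters of the 10 genes were dense in CpG, the dinucleotide at which mammalian DNA is methylated. RefSeq promoters (GRCh38.p14) were matched for all 10 genes, with 14 start sites. In the 250 bases before the start they held 11 to 54 CpG with a median of 34, against a median of 11 over 35116 promoters. CBX7 had 41, and 1.73% of all promoters had as many or more. EED had the fewest, and 50.3% of all promoters had as many or more. Both strands were searched for TTTCGCGC and TTTGGCGC, motifs of the cell cycle factor E2F that cannot match at the same position. No member promoter held either, and 0.968% of all promoters did. The stretches before the start of CBX7 (chromosome 22, 39152681 to 39152930, minus strand), of BMI1 at its upstream start (chromosome 10, 22320849 to 22321098, plus strand) and of EED (chromosome 11, 86244503 to 86244752, plus strand) are shown with CpG in capitals, because CBX7 had the largest range over the arrays, BMI1 set treated knockdown clones apart at both probes and EED had the smallest range. Methylation of these stretches was not analysed here.
CBX7: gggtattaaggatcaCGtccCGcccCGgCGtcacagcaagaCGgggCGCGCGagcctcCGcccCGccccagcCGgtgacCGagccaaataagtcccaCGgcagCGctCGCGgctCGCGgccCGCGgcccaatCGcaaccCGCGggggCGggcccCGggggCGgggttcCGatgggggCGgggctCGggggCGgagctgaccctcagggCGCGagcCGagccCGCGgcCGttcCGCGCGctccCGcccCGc
BMI1: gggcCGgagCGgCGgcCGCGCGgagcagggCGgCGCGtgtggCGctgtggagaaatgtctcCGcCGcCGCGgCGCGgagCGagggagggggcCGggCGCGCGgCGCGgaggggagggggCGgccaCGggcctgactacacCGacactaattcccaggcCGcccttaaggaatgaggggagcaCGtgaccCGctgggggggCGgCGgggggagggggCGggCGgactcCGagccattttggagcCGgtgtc
EED: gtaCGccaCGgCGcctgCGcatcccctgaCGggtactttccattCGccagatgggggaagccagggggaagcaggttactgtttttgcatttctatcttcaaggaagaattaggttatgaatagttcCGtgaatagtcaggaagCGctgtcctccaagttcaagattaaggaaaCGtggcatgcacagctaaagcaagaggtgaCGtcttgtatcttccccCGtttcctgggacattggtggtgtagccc

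The arrays lay on 2 slides that were scanned at separate times, and the groups were not balanced over them. On slide 2 were all 3 treated control arrays, knockdown clone 2 after treatment and control clone 3 in mock, and on slide 1 the other 7 arrays. Control clones 1 and 2 and knockdown clone 2 thus had mock arrays on slide 1 and treated arrays on slide 2. Their responses to 5-aza-dC cross slides, so that drug and slide cannot be told apart in them. Counts of responses over all clones include them. Without knockdown clone 2 the treated comparison of clone types sets one slide against the other, and without control clone 3 in mock the 5-aza-dC comparison in control clones does, so that slide and group cannot be told apart in either. The number of probes called then went from 24 to 7728 of 24640 and from 1286 to 8619 of 24294. For the main probes of EZH1, SUZ12 and RING1, every array of one slide lay above every array of the other. The same held for RBBP4 probe A_23_P326691 and RNF2 probe A_23_P85543. TET1 itself, at its brightest probe (A_33_P3295550), lay at 4.23 to 4.67 in mock control and 3.51 to 3.59 in mock knockdown clones, which did not overlap (log2 difference -0.93, SE 0.19, adjusted p = 0.276, limma). After 5-aza-dC knockdown clone 2, at 4.31, lay within the 4.06 to 4.42 of the control clones. With slide as a block, the treated comparison of clone types rests on this clone alone against the 3 treated control clones. The 5-aza-dC comparison in control clones then rests on the 3 treated clones against mock control clone 3 alone. The epithelial markers KRT8, KRT18 and CDX2 were well above background on all 12 arrays, EPCAM on 10, KRT19 on 6, VIL1 on 1 and CDH1 on none.

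**Figure D1:**
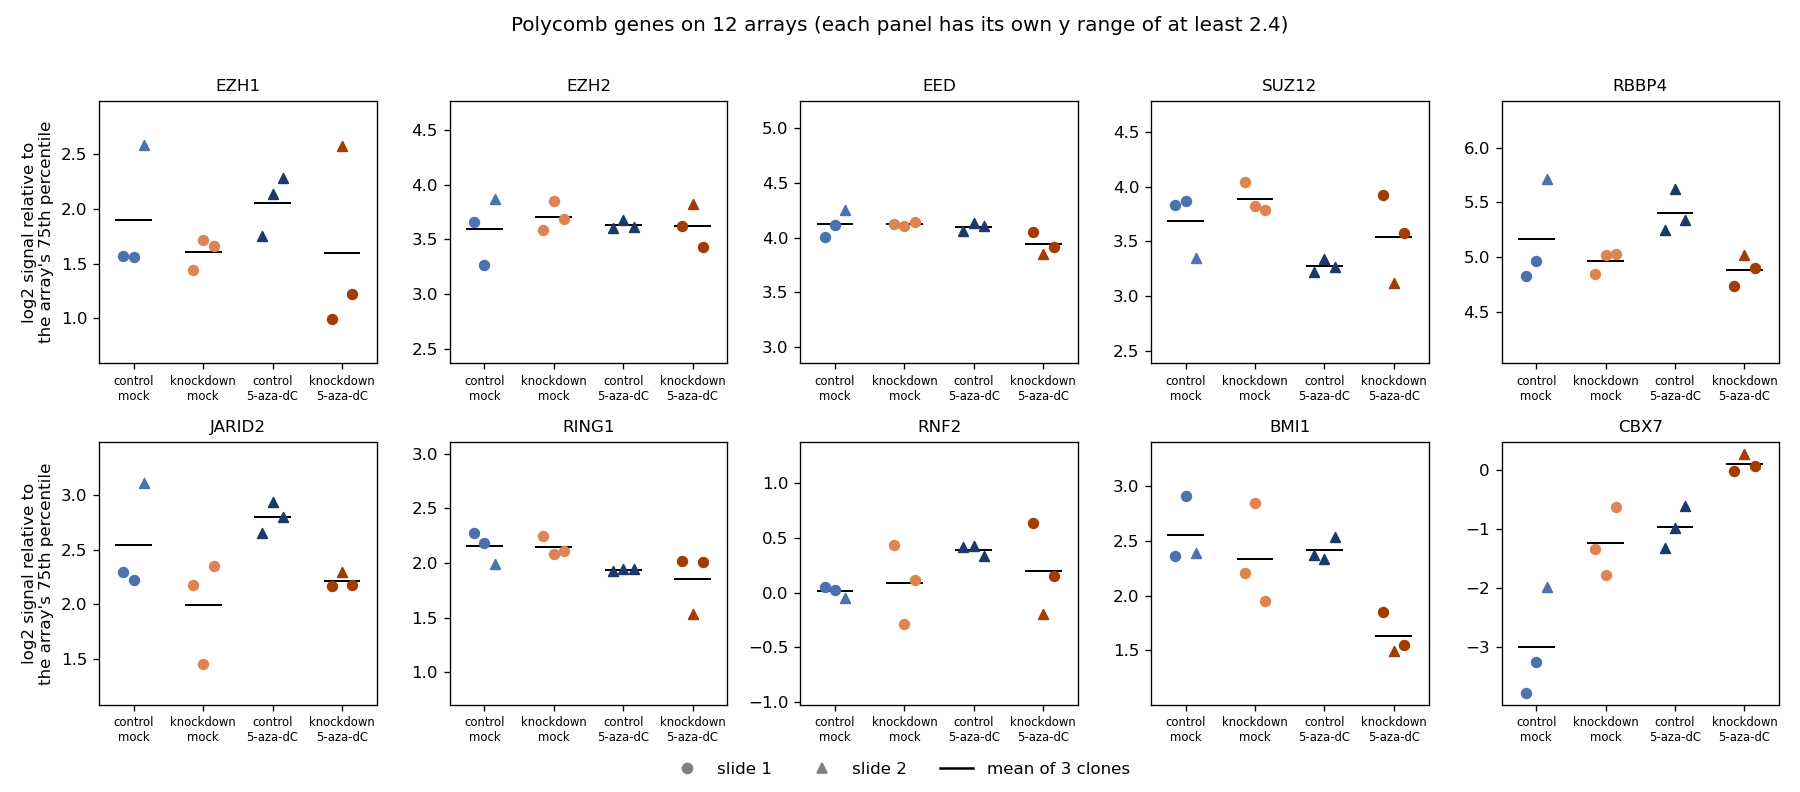
The brightest probe of each Polycomb gene on all 12 arrays; the y axis is the log2 signal relative to the array's 75th percentile, each point is a clone, circles are slide 1 and triangles slide 2, and bars are means of 3 clones. CBX7 ran from -3.77 to 0.26, EED from 3.85 to 4.25.

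EZH2 and EED had the smallest ranges over the arrays among the PRC2 genes. EZH2, the methyltransferase of PRC2 in dividing cells, had 3.66, 3.26 and 3.86 in mock control clones 1 to 3, and 3.58, 3.85 and 3.69 in mock knockdown clones. After 5-aza-dC it had 3.61, 3.68 and 3.62 in control and 3.62, 3.83 and 3.43 in knockdown clones. All 4 groups overlapped, and the group means lay between 3.60 and 3.71. The knockdown difference was 0.11 (95% interval -0.42 to 0.64) in mock and -0.01 (95% interval -0.48 to 0.46) in treated clones, so that differences within these bounds could not be resolved. EED, which binds the methylated histone, spanned 0.40 over the 12 arrays, the smallest range among the 16 probes. It lay at 4.06 to 4.14 in treated control clones and at 3.85 to 4.05 in treated knockdown clones, which did not overlap (-0.16, SE 0.18, adjusted p = 0.621).

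EZH1, the second methyltransferase, followed the slides. Its values were 1.57, 1.56 and 2.58 in mock control, 1.45, 1.72 and 1.66 in mock knockdown, 1.75, 2.14 and 2.28 in treated control and 0.99, 2.57 and 1.23 in treated knockdown clones. The 3 highest, 2.58, 2.57 and 2.28, were all slide 2 arrays. The pooled difference of treated knockdown from treated control clones was -0.46 (adjusted p = 0.561, limma). It turned to 0.52 with slide as a block, from knockdown clone 2 alone. Without treated knockdown clone 2, where slide and clone type coincide, it was -0.95 (adjusted p = 0.0265). Over all clones the response was 0.07 and turned to -0.55 with slide as a block (adjusted p = 0.885 and 0.0583).

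SUZ12, the scaffold of PRC2, was lower after 5-aza-dC than in mock in 6 of 6 clones, but the slides separated it too. Its probe was printed 10 times per array, and it had 3.83, 3.87 and 3.35 in mock control and 3.22, 3.34 and 3.27 in treated control clones. The groups did not overlap, and mock control clone 3, the mock control on slide 2, was the nearest to the treated clones. The responses of single clones were -0.62, -0.53 and -0.08 in control and -0.12, -0.71 and -0.21 in knockdown clones. Those of -0.62, -0.53 and -0.71 belong to the clones whose arrays crossed slides. The mean response over all clones was -0.38 (SE 0.16, adjusted p = 0.139) and -0.09 with slide as a block (adjusted p = 0.661). Without mock control clone 3, where slide and treatment coincide, the difference in control clones went from -0.41 to -0.58 (adjusted p = 0.234 and 0.0215).

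JARID2, an accessory subunit that helps to recruit PRC2, and RBBP4, a histone-binding subunit, had lower means in knockdown than in control clones. JARID2 had 2.30, 2.22 and 3.11 in mock control and 2.18, 1.45 and 2.35 in mock knockdown clones, which overlapped. After 5-aza-dC it had 2.65, 2.94 and 2.80 in control and 2.17, 2.29 and 2.18 in knockdown clones. These did not overlap, and the difference was -0.58 (SE 0.19, adjusted p = 0.214, limma). It was -0.50 with slide as a block, from knockdown clone 2 alone. Without treated knockdown clone 2, and so with clone type and slide coinciding, it was -0.62 (adjusted p = 0.0382). The response in control clones was 0.25 (adjusted p = 0.568, limma). It turned to -0.32 with slide as a block, against mock control clone 3 alone. Without mock control clone 3, where slide and treatment coincide, it was 0.54 (adjusted p = 0.0403). RBBP4 at its brightest probe had 5.25, 5.62 and 5.33 in treated control and 4.74, 5.02 and 4.90 in treated knockdown clones (-0.52, SE 0.20, adjusted p = 0.248, limma). With slide as a block RBBP4 had -0.39, from knockdown clone 2 alone. Its 4 probes disagreed. In that comparison A_23_P326691 gave -0.52, A_33_P3232562 gave -0.21 and A_24_P468810 gave 0.20. The last of these was lower after 5-aza-dC in 6 of 6 clones, by -0.89 to -0.12 (mean over all clones -0.44, SE 0.15, adjusted p = 0.0764). With slide as a block it was called (-0.58, adjusted p = 0.0483, limma). With clone as a block, alone or together with slide, it was not called (adjusted p = 0.0781 and 0.1, limma). The brightest probe had 0.08 over all clones (SE 0.17), which turned to -0.18 with slide as a block (adjusted p = 0.485). The probe A_24_P468810 lies at 33151434 to 33151493 on chromosome 1 (hg19), and the other 3 between 33145595 and 33146258.

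The E3 ligases of PRC1 showed small responses. RING1 was lower after 5-aza-dC in 6 of 6 clones. Its responses were -0.34, -0.24 and -0.55 in the clones whose arrays crossed slides, and -0.05, -0.23 and -0.10 in the others. It had 2.27, 2.19 and 1.99 in mock control and 1.93, 1.94 and 1.94 in treated control clones. In knockdown clones it had 2.25, 2.09 and 2.10 in mock and 2.02, 1.54 and 2.01 after treatment. Neither pair of groups overlapped, and the mean response was -0.25 (SE 0.12, adjusted p = 0.187), or -0.07 with slide as a block (adjusted p = 0.679). RNF2 was higher after 5-aza-dC in 6 of 6 clones at its brightest probe, A_24_P199500. It had 0.06, 0.03 and -0.05 in mock control and 0.42, 0.43 and 0.33 in treated control clones. In knockdown clones it had 0.44, -0.29 and 0.11 in mock and 0.64, -0.20 and 0.16 after treatment. The responses were 0.36, 0.40 and 0.38 in control and 0.20, 0.09 and 0.04 in knockdown clones. Every control clone thus responded more than every knockdown clone (two-sided p = 0.1 by an exact permutation test, and 3 against 3 clones allow none smaller), while the interaction had an adjusted p of 1 (limma, -0.27, SE 0.34). The response over all clones was 0.25 (SE 0.17, adjusted p = 0.336) and 0.42 with slide as a block. The other RNF2 probe, A_23_P85543, was negative in 3 clones and positive in 3, and its slide 2 arrays lay between -2.03 and -1.15, all under its slide 1 arrays.

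BMI1, the RING partner that stimulates the ligase of PRC1, was lowest in treated knockdown clones at both probes. At A_23_P314115 it had 2.36, 2.92 and 2.39 in mock control and 2.20, 2.85 and 1.95 in mock knockdown clones, which overlapped. After 5-aza-dC it had 2.37, 2.34 and 2.54 in control clones. Treated knockdown clones had 1.85, 1.49 and 1.55, below all 9 other arrays. Treated knockdown differed from treated control clones by -0.78 (SE 0.20, adjusted p = 0.178, limma). With slide as a block the difference was -0.92, from knockdown clone 2 alone. Without treated knockdown clone 2, again with slide and clone type coinciding, the difference was -0.71 (adjusted p = 0.032). The second probe, A_24_P303989, whose 60 bases span 409 bases of the genome (chromosome 10, 22617587 to 22617995), gave -1.06 (SE 0.20, adjusted p = 0.132). It had 0.68, 0.62 and 0.75 in treated control and -0.16, -0.53 and -0.42 in treated knockdown clones, again without overlap. This probe was lower after 5-aza-dC in 6 of 6 clones and was called over all clones (-0.61, SE 0.17, adjusted p = 0.0433, limma). With slide, with clone, or with both as blocks it was not called (adjusted p = 0.154, 0.0612 and 0.361). The brighter probe gave -0.42 over all clones (SE 0.18, adjusted p = 0.134), and -0.07 with clone and slide as blocks (adjusted p = 0.82). Its responses were 0.01, -0.58 and 0.14 in control and -0.35, -1.35 and -0.40 in knockdown clones. These overlapped, and the interaction was -0.56 (SE 0.36, adjusted p = 1).

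CBX7, a chromodomain subunit that reads the methylated histone, was the one member gene called, and it rose with 5-aza-dC. At A_23_P250735 (hg19 chromosome 22, 39527000 to 39527059, minus strand) it had -3.77, -3.25 and -1.98 in mock control clones. It had -1.34, -1.77 and -0.62 in mock knockdown clones and -1.32, -0.99 and -0.61 in treated control clones. It was highest in treated knockdown clones, at -0.02, 0.26 and 0.07. Mock control clones lay below every other array, treated knockdown clones above every other array, and the 2 groups between overlapped. Over all clones it rose by 1.69 (SE 0.31, adjusted p = 0.00577, limma), or 3.22-fold, with a positive response in 6 of 6 clones of between 0.69 and 2.45. The responses were 2.45, 2.27 and 2.03 in the clones whose arrays crossed slides, and 1.36, 1.33 and 0.69 in the others. With slide as a block the rise was 1.25 (adjusted p = 0.0416), and with clone and slide 1.18 (adjusted p = 0.022). With normexp and quantile normalization it was 1.02 (adjusted p = 0.00327). Over all its tested alternatives the adjusted p ran from 0.00209 to 0.0458.

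Within each clone type the rise was 2.03 in control (SE 0.47, adjusted p = 0.0653) and 1.35 in knockdown clones (SE 0.32, adjusted p = 0.159). The clones are the same in mock and treated arrays. With the clone as a block the value in control clones passed the threshold (replicate block, adjusted p = 0.0282), and without mock control clone 3, where treatment and slide coincide, it was 2.54 (adjusted p = 0.00464). With slide as a block it was 1.00 and not called (adjusted p = 0.241), since mock control clone 3 is then the single mock array set against the treated clones. With clone and slide together it was 1.36, also not called (adjusted p = 0.139). The interaction was -0.68 (SE 0.61, adjusted p = 1). Knockdown clones differed from control clones by 1.75 in mock (SE 0.52, adjusted p = 0.371) and by 1.08 after 5-aza-dC (SE 0.24, adjusted p = 0.16). Without treated knockdown clone 2, where clone type and slide coincide, the latter was 1.00 (adjusted p = 0.0303). The mock signals of this probe were low, at 23.7 to 69.7 fluorescence units in mock control clones against 289 to 370 in treated knockdown clones.

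The second CBX7 probe gave the opposite sign. A_33_P3343845 lies at 39529719 to 39529778 on the same strand. It had -1.27, -1.60 and -1.63 in mock control and -2.37, -2.07 and -1.88 in treated control clones, which did not overlap. In knockdown clones it had -1.60, -1.46 and -1.65 in mock and -1.61, -1.81 and -1.68 after treatment. Its response was negative in 6 of 6 clones, between -1.10 and -0.01, with a mean of -0.37 (SE 0.13, adjusted p = 0.0818). In mock clones it differed between knockdown and control by -0.08, where the first probe gave 1.75. After 5-aza-dC it lay higher in knockdown than in control clones without overlap, as the first probe did (0.41, SE 0.21, adjusted p = 0.32). The rise of CBX7 is therefore a result of A_23_P250735 alone, and the mean of both probes over all clones was 0.66. A_23_P250735 had the higher mean over all arrays through the treated and knockdown clones. In mock control clones its mean was -3.00, against -1.50 for A_33_P3343845. The brightest probe was thus chosen with the values under test, and its call is a description. Which transcripts each probe detects was not tested.

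**Figure D2:**
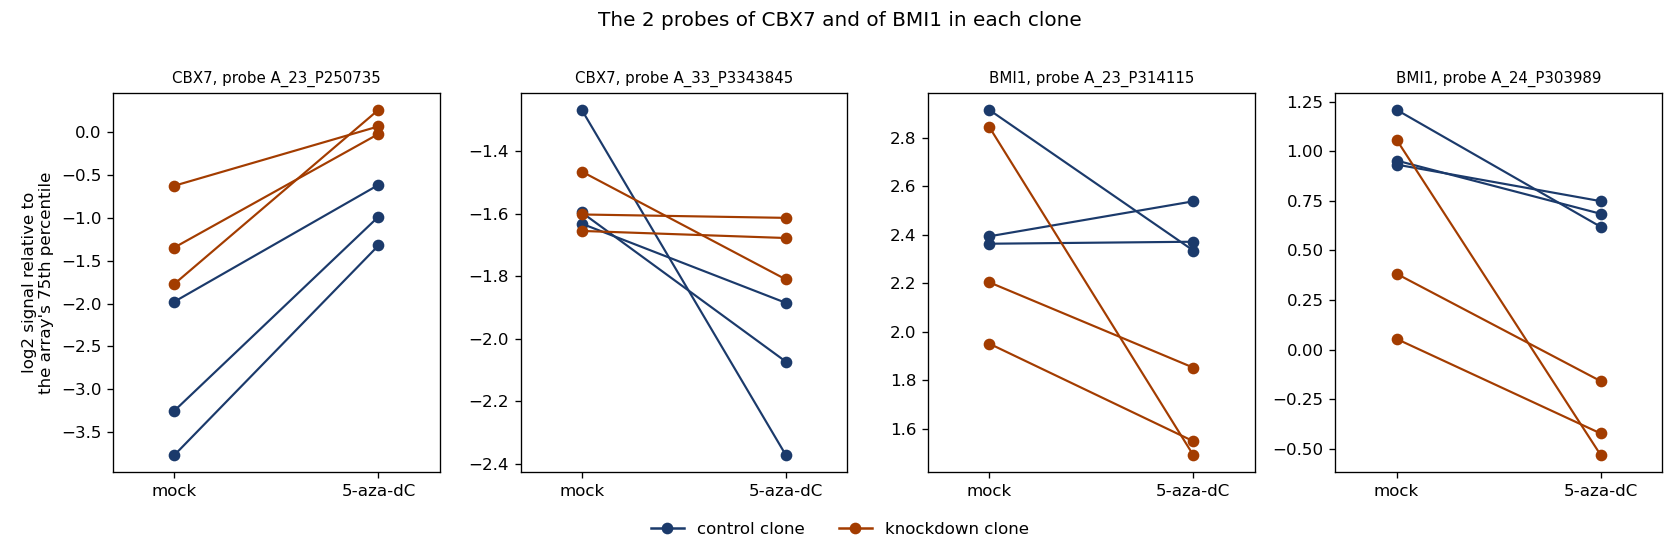
The 2 probes of CBX7 and the 2 of BMI1 in each clone, as log2 signal relative to the array's 75th percentile (y axis, own range in each panel) in mock and 5-aza-dC arrays of the same clone, joined by a line. CBX7 A_23_P250735 had a positive response in 6 of 6 clones and A_33_P3343845 a negative one in 6 of 6.

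Calls among the member genes were few, and each count is given beside the share of all probes that passed the same test. In mock clones 0 of 10 genes were called between knockdown and control (0.137% of all 24753 probes), 1 had an unadjusted p under 0.05 (11.2%) and 1 did not overlap between groups (21.3%), CBX7 in each case. In treated clones 0 were called (0.096%), 4 had an unadjusted p under 0.05 (19.3%) and 5 did not overlap (25%), namely EED, RBBP4, JARID2 and BMI1 lower and CBX7 higher in knockdown clones. The 10 genes had a median difference of -0.18 there, against -0.01 over all probes. For 5-aza-dC in control clones 0 were called (5.22%, with 948 probes higher and 338 lower, or 906 and 562 with quantile normalization and 889 and 1650 with the array median as the scale), 2 had an unadjusted p under 0.05 (26.5%) and 4 did not overlap (32.4%), SUZ12 and RING1 lower and RNF2 and CBX7 higher. In knockdown clones 0 were called (2.04%), 2 had an unadjusted p under 0.05 (9.15%) and 4 did not overlap (19.2%), EED, RING1 and BMI1 lower and CBX7 higher. Over all clones 1 was called (13.2%, with 1989 probes higher and 1623 lower, or 1912 and 2337 with quantile normalization and 1700 and 6849 with the array median as the scale) and 3 had an unadjusted p under 0.05 (32.1%). For the interaction 0 were called (0.0366%) and 0 had an unadjusted p under 0.05 (2.47%). The responses of control and knockdown clones did not overlap for 1 gene, RNF2 (9.28%). Members without overlap thus numbered 1, 5, 4 and 4 of 10 in the 4 pairwise comparisons. With quantile normalization 2 of 10 did not overlap for 5-aza-dC in either clone type, a setting where the share of all probes was not computed. Those comparisons share arrays, and with 10 genes the difference from all probes was not tested.

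**Figure D3:**
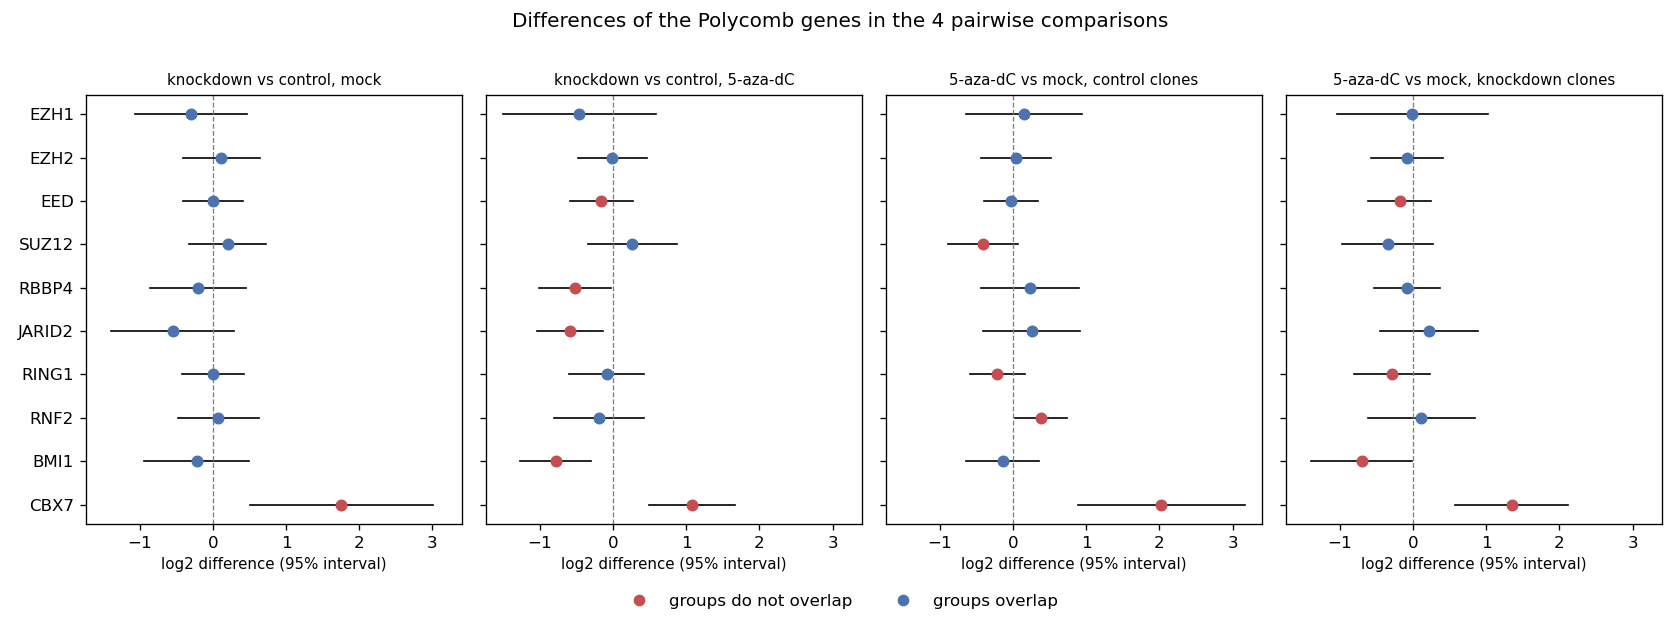
Log2 differences (x axis) of the brightest probe of each Polycomb gene in the 4 pairwise comparisons, with 95% limma intervals; red points mark groups of 3 clones that did not overlap. CBX7 was not overlapping in all 4, and EZH2 overlapped in all 4.

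**Figure D4:**
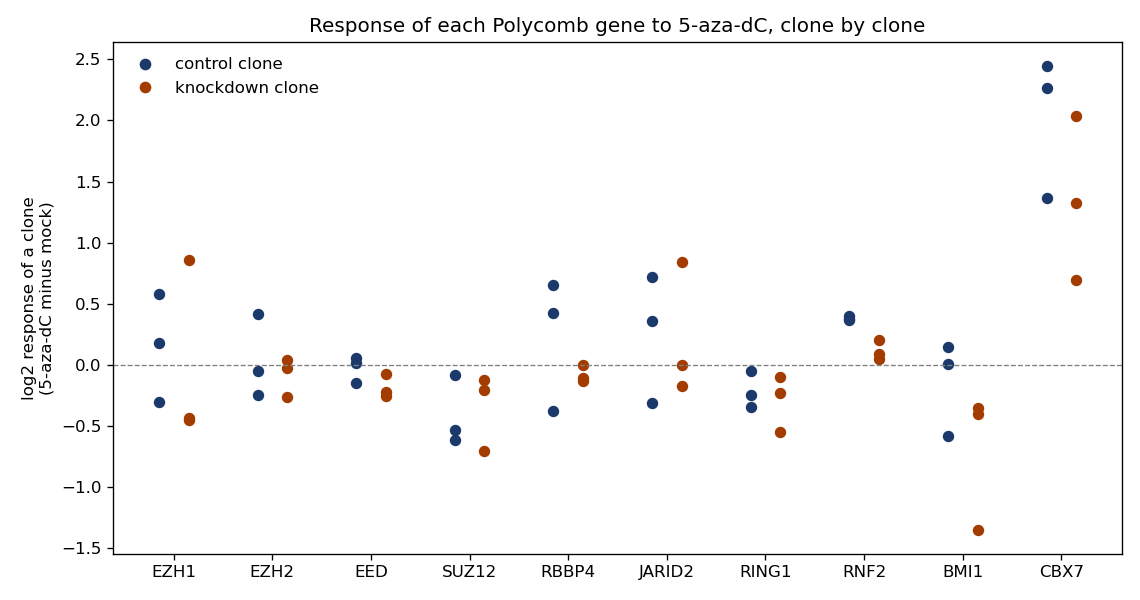
Response to 5-aza-dC of each clone, as the log2 signal after treatment minus that in mock (y axis), for the brightest probe of the 10 genes (x axis). CBX7 responses lay between 0.69 and 2.45, and the RNF2 responses of control clones lay above those of knockdown clones.

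Other Polycomb genes were described from lists of names. Of all probes 13.2% were called over all clones, and 0.137%, 0.096%, 5.22% and 2.04% in the 4 pairwise comparisons. Of 7 PRC2 accessory genes none was called in a pairwise comparison. Over all clones C17orf96 was called higher after 5-aza-dC (0.86, SE 0.20, adjusted p = 0.019, limma). PHF19, which binds methylated histone H3, was called lower (-1.34, SE 0.26, adjusted p = 0.00816, limma). C17orf96 went from 4.38 to 5.85, 4.26 to 5.60 and 4.14 to 5.60 in the clones whose arrays crossed slides. In the others it went from 4.96 to 5.23, 4.71 to 5.04 and 4.53 to 4.83. The 7 genes had a median response of 0.03. PHF19 lay at 3.75 to 4.89 in mock control and 2.32 to 3.09 in treated control clones, which did not overlap. It went from 4.43 to 2.32, 4.89 to 3.09 and 4.64 to 2.56 in the clones whose arrays crossed slides. In the others it went from 3.75 to 2.84, 4.22 to 3.53 and 3.79 to 3.335. Of 20 other PRC1 genes none was called in a pairwise comparison, and the median over all clones was -0.07. PCGF2 (-0.94, SE 0.23, adjusted p = 0.0251, limma) and SCMH1 (-0.45, SE 0.12, adjusted p = 0.0336, limma) were called lower over all clones. PCGF2 went from -2.50 to -4.05, -2.365 to -4.15 and -2.53 to -3.64 in the clones whose arrays crossed slides. In the others it went from -3.40 to -3.60, -2.10 to -2.92 and -2.73 to -2.88. None of these lists was fitted with slide as a block. PCGF2, an alternative partner to BMI1, was well above background on 8 of the 12 arrays. It passed the filter on dim probes through the arrays where it was high, so its call is a description. Of 5 genes whose products act in the removal of Polycomb marks 0 were called, with ASXL1 the lowest (-0.73, SE 0.29, adjusted p = 0.119) and KDM6B the highest (0.40, SE 0.26, adjusted p = 0.314). Of 10 genes often described as Polycomb targets 7 were bright enough to be tested over all clones. CDKN1C, a cell cycle inhibitor, was well above background on 12 arrays and had the largest response, which was not called (2.33, SE 0.77, adjusted p = 0.0706). PAX6 was well above background on 5 arrays and brightest in treated control clones, at -1.44, -1.72 and -2.57. It passed the filter on dim probes through the arrays where it was high, so its response (2.17, SE 0.60, adjusted p = 0.04) is given as a description.

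Some marker lists moved with 5-aza-dC as well. Of 10 proliferation genes MKI67 was called lower over all clones (-0.61, SE 0.15, adjusted p = 0.0248, limma), where 13.2% of all probes were called. The median of the list was -0.14. The marker lists too were not fitted with slide as a block. On a linear scale relative to the 75th percentile, the 5 neuroendocrine markers summed to 0.396 to 0.628 in mock control and 4.28 to 8.34 in treated control clones, and to 0.148 to 0.918 in mock and 2.62 to 3.501 in treated knockdown clones. CHGA and ENO2 were called higher over all clones, and INSM1 was well above background on 0 arrays. The 7 epithelial markers summed to 329 to 646, 226 to 360, 415 to 500 and 228 to 423 in mock control, mock knockdown, treated control and treated knockdown clones, with EPCAM and KRT19 called higher. CDX2, at log2 values of 7.67 to 9.27, made up most of each of these sums. The 5 fibroblast markers summed to 0.278 to 2.24, 0.29 to 0.639, 1.51 to 3.92 and 1.03 to 1.96 in the same order, with COL1A1 called higher and COL1A2 well above background on 0 arrays. The 3 endothelial markers summed to 0.156 to 0.255, 0.261 to 0.328, 0.0773 to 0.129 and 0.14 to 0.263, with CDH5 and VWF called lower and PECAM1 well above background on 0 arrays. CHGA was well above background on 4 arrays, KRT19 on 6, VWF on 7 and CDH5 on 9, so that they passed the filter on dim probes through the arrays where they were high, and their calls are a description. The part of these lists in the rise of CBX7 was not tested.

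The genes whose level followed EZH2 and RNF2 most closely were named by correlation over the 12 arrays, after the mean of each slide was taken off, among 12064 genes. For EZH2 they were RPSA (r = 0.86), MRPL23 (0.85) and EVX1 (0.84). For RNF2 they were C1orf198 (0.96), ACBD3 (0.95) and C21orf67 (0.95). The 12 arrays come from 6 clones, and these values are a description with no test.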

How the data were processed

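The 12 one-colour Agilent arrays, of 62976 spots each, held RNA from 6 clones of Colo320DM in 4 groups of 3. The authors extracted the signals with Agilent Feature Extraction (version 10.7 per the labels). The deposited intensity is the processed signal of each spot. The table deposited for the whole series holds the same intensity values within 0.497% and was used as an alternative. How the authors normalised it for their own tests is not given in the sources used here, and their tests were t tests with Benjamini-Hochberg correction.

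Here control spots and spots with outlier flags were left out, log2 intensities were averaged per probe, and the 75th percentile of each array was subtracted. Between 45.7% and 52.9% of probes were well above background per array, and no spot was saturated. Groups were compared with limma 3.58.1 in R 4.3.3 on the arrays of the groups compared, or on all 12 arrays for the mean effect of 5-aza-dC and the interaction, over probes well above background on at least 3 arrays of the fit. Scripts were tested on simulated data.

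All members were named in the text, each by its brightest probe and with probes that disagreed. From the other lists the genes called and the largest rise or fall were named. Members and lists were chosen with earlier results of these data known. Replicates are separate clones of 1 cell line, so p-values measure the spread between these clones. In the 5-aza-dC comparisons the number marks the same clone, and deviations of same-numbered arrays correlated at 0.27 to 0.56, so these samples are pairs. The alternatives were other normalizations and filters, slide and clone as blocks, the methods' t-test and leaving out each array or clone. Probe positions are those of the files (hg19). Protein sequences were not used here, and some marker genes are not reported here.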

Additional observations from a re-analysis of the deposited data

How the results depend on the processing

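The rise of CBX7 over all clones at its brightest probe kept its sign and its call under all 16 alternatives with a test. All 16 use A_23_P250735, which was chosen with the values under test, so this is a description. The mean of both CBX7 probes, which has no test, was 0.66, and the second probe was lower after 5-aza-dC in 6 of 6 clones. The clone numbers pair the samples in the 5-aza-dC comparisons. Between clone types the same number marks different clones, and deviations of same-numbered arrays correlated at -0.05 to 0.12. The replicate block thus joins unrelated clones there, and its values between clone types are a description. The replicate block called 1 member gene (CBX7) for 5-aza-dC in control clones where 0 were called without it, with 1415 of 24641 probes called. All 12 arrays in 1 fit did so too, with 1862 of 27287 probes called. The replicate block changed no other count of member genes called. The array median as the scale called 4 (SUZ12, RING1 and BMI1 lower, CBX7 higher) over all clones instead of 1. It called 8549 of 27287 probes there, 6849 of them lower, against 3612 in the main fit. It also moved the median of all probes there from -0.05 to -0.29. With 1 array left out, 0 to 4 member genes were called for knockdown against control after 5-aza-dC, the 4 being EZH1, JARID2, BMI1 and CBX7 without knockdown clone 2, when 7728 of 24640 probes were called. For 5-aza-dC in control clones 0 to 3 were called, the 3 being SUZ12, JARID2 and CBX7 without mock control clone 3, when 8619 of 24294 probes were called. In both, slide and group then coincide. Members without overlap numbered 1 to 3, 5 to 8 and 4 to 7 with 1 array left out, in mock clones between clone types, in treated clones between clone types and for 5-aza-dC in control clones. With no array left out, 21.3%, 25% and 32.4% of all probes did not overlap there. The share of all probes was not computed with 1 array left out or under the other normalizations. Quantile normalization, alone or with normexp, left 2 without overlap for 5-aza-dC in either clone type, and the array median as the scale gave 7 in knockdown clones. On the slide that holds both groups, an alternative chosen after seeing the data, 10 members did not overlap for treated knockdown clone 2 against 3 treated control clones (63.4% of all probes) and 9 for 3 treated against mock control clone 3 (63.9%).

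Of 1104 differences of single genes under an alternative, 969 kept their sign and, where there was a test, their side of the threshold. Another 12 passed the threshold, and 9 kept their sign but moved by at least 1 SE. These 9 were means over a gene's probes, with no test, among them CBX7 over all clones. The other 114 turned their sign, of which 45 had 1 array or clone left out. None of the turned values was called (smallest adjusted p 0.0583) and none was of CBX7. The cause was not tested. Between clone types the replicate block joins unrelated clones, so the values it turned there are a description. With slide as a block the turned values were EZH1 0.045, EED 0.062 and RBBP4 0.070 for knockdown against control in mock, EZH1 0.52, EZH2 0.19 and SUZ12 -0.15 for knockdown against control after 5-aza-dC, EZH1 -0.53, EZH2 -0.23, RBBP4 -0.31, JARID2 -0.32 and BMI1 0.021 for 5-aza-dC in control clones, EZH1 -0.55, RBBP4 -0.18 and JARID2 -0.0062 for 5-aza-dC over all clones, and EZH1 0.25, SUZ12 -0.12 and JARID2 0.13 for the interaction. With the replicate block and slide together they were EZH1 0.019, EED 0.053 and RBBP4 0.038 for knockdown against control in mock, EZH1 0.44, EZH2 0.15 and SUZ12 -0.22 for knockdown against control after 5-aza-dC, EZH1 -0.30, EZH2 -0.25, RBBP4 -0.38, JARID2 -0.31 and BMI1 0.14 for 5-aza-dC in control clones, JARID2 -0.089 for 5-aza-dC in knockdown clones, EZH1 -0.42, RBBP4 -0.18 and JARID2 -0.21 for 5-aza-dC over all clones, and EZH1 0.17, SUZ12 -0.11 and JARID2 0.27 for the interaction. With all 12 arrays in 1 fit and slide as a block, chosen after seeing the data, they were EZH1 0.12, EED 0.0082 and RNF2 -0.040 for knockdown against control in mock, EZH1 0.37, EZH2 0.23 and SUZ12 -0.11 for knockdown against control after 5-aza-dC, and EZH1 -0.68, EZH2 -0.20, RBBP4 -0.11, JARID2 -0.072, RING1 0.025 and BMI1 0.0090 for 5-aza-dC in control clones. With the array median as the scale they were EED 0.012 and RING1 0.0085 for knockdown against control in mock, EZH1 -0.063 and EZH2 -0.18 for 5-aza-dC in control clones, JARID2 -0.043 and RNF2 -0.15 for 5-aza-dC in knockdown clones, and EZH1 -0.17, RBBP4 -0.16 and JARID2 -0.0024 for 5-aza-dC over all clones. With normexp and quantile normalization they were EZH2 0.014 for knockdown against control after 5-aza-dC, EZH1 0.078, EZH2 0.019 and RBBP4 0.013 for 5-aza-dC in knockdown clones, EZH2 0.042 for 5-aza-dC over all clones, and JARID2 0.0090 and RING1 0.0079 for the interaction. With quantile normalization they were EZH2 0.077 for knockdown against control after 5-aza-dC, EZH1 0.054 for 5-aza-dC in knockdown clones, and JARID2 0.030 for the interaction. With outlier spots kept it was EED 0.00023 for knockdown against control in mock. With the mean over a gene's probes they were RNF2 0.42 for knockdown against control after 5-aza-dC, and RBBP4 -0.017 for 5-aza-dC over all clones. With 1 array or clone left out the turned values ran as follows. For knockdown against control in mock the ranges were EZH1 -0.47 to 0.045, EZH2 -0.053 to 0.25, EED -0.061 to 0.062, RBBP4 -0.38 to 0.070, RING1 -0.082 to 0.057 and RNF2 -0.10 to 0.26. For knockdown against control after 5-aza-dC the ranges were EZH2 -0.11 to 0.091, RING1 -0.17 to 0.076 and RNF2 -0.41 to 0.0049. For 5-aza-dC in control clones the ranges were EZH1 -0.020 to 0.49, EZH2 -0.13 to 0.17, EED -0.085 to 0.038 and BMI1 -0.24 to 0.036. For 5-aza-dC in knockdown clones the ranges were EZH1 -0.50 to 0.29, EZH2 -0.18 to 0.016, JARID2 -0.049 to 0.40 and RNF2 -0.11 to 0.31. For 5-aza-dC over all clones the ranges were EZH1 -0.15 to 0.18, EZH2 -0.12 to 0.049 and RBBP4 -0.030 to 0.23. For the interaction the ranges were EZH1 -0.60 to 0.059, EZH2 -0.26 to 0.067, SUZ12 -0.046 to 0.25, JARID2 -0.34 to 0.20 and RING1 -0.18 to 0.049. 

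The number of calls over all probes also moved. By the methods' t-test after Benjamini-Hochberg 4, 3, 358 and 211 probes were called in the 4 pairwise comparisons, against 34, 24, 1286 and 519 by limma, and no member gene by either. With 1 array or clone left out the counts ran from 8 to 94 in mock and from 0 to 7728 after 5-aza-dC between clone types (limma, 2285 to 2725 at an unadjusted p under 0.05 in the fits with 0), from 32 to 8619 for the drug in control clones and from 17 to 470 for it in knockdown clones, from 1412 to 4874 over all clones and from 1 to 9 for the interaction. Counts that moved by over 1.5 times under other alternatives were as follows, where the replicate block between clone types joins unrelated clones. For knockdown against control in mock 34 became 20 with the replicate block, 0 with the replicate block and slide (limma, 1781 at an unadjusted p under 0.05), 84 and 115 with all 12 arrays without and with slide, and 5 with probes well above background on every array. For the same after 5-aza-dC 24 became 10 with normexp, 39 with the array median, 12 with no filter, 0 with the every-array filter (limma, 4373 at an unadjusted p under 0.05), 61 with slide, 7 with the replicate block, 4 with both blocks, and 187 and 37 with all 12 arrays without and with slide. For 5-aza-dC in control clones 1286 became 2539 with the array median (889 higher and 1650 lower, against 948 and 338), 427 with the every-array filter, 525 with slide and 0 with both blocks (limma, 3806 at an unadjusted p under 0.05). For the drug in knockdown clones 519 became 267 with normexp, 50 with the every-array filter, and 818 and 844 with all 12 arrays without and with slide. Over all clones 3612 became 8549 with the array median, 1993 with the every-array filter and 1673 with both blocks. For the interaction 10 became 4 with no filter, 4 with the every-array filter, 2 with the replicate block and 5 with both blocks. With 3 clones a group, precision is limited by their number: the 95% interval of EED, the evenest gene, was -0.59 to 0.27 for knockdown against control after 5-aza-dC.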
